A study of Homo sapiens with 16 samples.

Results

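The genes followed here were the lineage factors TP63, SOX2, NKX2-1, FOXA1, FOXA2, GATA6, SOX9, KLF5 and HNF4A, in lung cancer cells with wt MET or MET∆14 exposed to HGF. They were taken by gene symbol, 9 of the 42351 genes in the table, and all 9 were found and passed the filter on low counts that left 15067 genes for testing. A lineage factor is a DNA-binding protein that sets up and maintains the gene expression of a cell type. In the lung, NKX2-1 marks alveolar and airway cells and most adenocarcinomas, and TP63 and SOX2 mark basal cells and squamous carcinomas. The pioneer factors FOXA1 and FOXA2 open chromatin in endoderm-derived epithelium, and SOX9 marks the progenitors at the tips of the developing airways. GATA6, KLF5 and HNF4A act in gut and liver, with GATA6 and KLF5 also active in lung epithelium. Loss of NKX2-1 in lung tumours is known to go with gut-type programmes.

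Poly(A) RNA was sequenced from A549, a lung cancer line whose label gives wt MET, and from NCI-H596, a lung adenosquamous carcinoma line whose label gives MET without exon 14 (MET∆14). MET is the receptor of hepatocyte growth factor (HGF), and the skipped exon encodes the juxtamembrane stretch that directs turnover of the receptor. Both lines were deprived of serum, left without HGF (0 h) or given HGF for 3, 6 or 12 h, and sequenced as 2 biological replicates per condition, which made 16 libraries with totals of 10158590 to 23909304 counts. The counts table writes the wt MET line with a name that differs from the label in its first letters, and the text of the study names EKVX, another lung adenocarcinoma line, as its wt MET line and does not name A549. The label was followed here, and EKVX was not tested as the source of these libraries. Each MET status is represented by 1 cell line, so the line and the allele cannot be told apart. The 0 h libraries are the only ones without HGF, so time in serum-free medium and HGF cannot be told apart either.

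The labels were checked against marker genes. CDKN2A and MTAP, neighbouring genes that A549 is known to have lost, had 0 counts and 5 to 23 counts per library in the wt MET libraries, and 1466 to 3464 and 883 to 3141 counts in the MET∆14 libraries. MET lay between 1206 and 1539 CPM (counts scaled to library size) with wt MET and between 370 and 443 CPM with MET∆14. The defining markers of lung adenocarcinoma were at or near 0 in both lines. SFTPB, SFTPA1 and SFTA3 had 0 counts in all 16 libraries, and SFTPA2 had at most 2 counts. The aspartic protease gene NAPSA had 1 to 16 counts with wt MET and 0 to 7 with MET∆14. Of 7 squamous markers, 6 were over 3 counts with MET∆14 and DSC3, a desmosomal cadherin, was not (0 to 1 counts). With wt MET 5 of the 7 were over 3 counts. Their summed level was 2459 to 3597 CPM with MET∆14 and 25.6 to 39.0 CPM with wt MET, there mostly DSC3 (23.0 to 36.7 CPM). The 2 leukocyte markers and the endothelial and fibroblast markers were low in both lines (summed levels of at most 0.244 CPM for leukocytes and 1.99 CPM for endothelium), apart from the fibroblast marker COL1A1, which lay between 10.8 and 33.3 CPM. Of 4 neuroendocrine markers, 3 were over 3 counts with wt MET (summed level of 19.9 to 27.5 CPM, mostly the synaptic vesicle gene SYP at 14.5 to 20.5 CPM and the granin gene CHGA at 3.91 to 6.86 CPM) and 1 with MET∆14 (0.599 to 1.69 CPM). The pair of wt MET libraries at 0 h, the baseline of each wt MET response, differed with a chi-square per degree of freedom of 7.74. The pair of MET∆14 libraries at 12 h differed from each other more than any other pair (26.9, against 2.36 to 3.78 in the remaining pairs). Of the 6 members called at 12 h with MET∆14, TP63, FOXA2, GATA6, SOX9 and KLF5 passed the test without either of these libraries, with log2 fold changes of -0.53 and -0.70, 1.07 and 0.79, -0.40 and -0.30, 1.12 and 1.20, and -0.55 and -0.62, and SOX2 passed it only without the second (-0.95 and -1.60). The replicates are called biological without naming separate cultures, so the p-values measure only the spread between these libraries, which may be technical.

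Before HGF the largest folds measured between the lines were those of TP63, FOXA2 and HNF4A. Cells expressing MET∆14 had high TP63 and KLF5 and almost no FOXA2, HNF4A or NKX2-1. Cells expressing wt MET had high KLF5, FOXA2, SOX9 and GATA6 and almost no TP63, SOX2 or NKX2-1. GATA6 and SOX9 were 1.49-fold and 2.23-fold lower with MET∆14, and KLF5 was 2.15-fold higher. At 0 h, 8 of the 9 members differed between the lines, 3 higher and 5 lower with MET∆14, in a comparison that called 80.2% of all genes tested (edgeR's quasi-likelihood test, adjusted p under 0.05). The share of members is near that background and is not read as a property of the set. Divided by the summed length of each gene's exons, KLF5 was the most abundant of the 9 in both lines, with 30.1 CPM per kb for wt MET and 64.6 CPM per kb for MET∆14. In wt MET cells it was followed by FOXA2 (22.3 CPM per kb), SOX9 (11.7), GATA6 (8.82), FOXA1 (2.15), HNF4A (0.802), SOX2 (0.313), NKX2-1 (0.258) and TP63 (0.0860). With MET∆14 the order was TP63 (21.8 CPM per kb), GATA6 (5.94), SOX9 (5.24), FOXA1 (1.82), SOX2 (0.932), FOXA2 (0.478), HNF4A (0.0403) and NKX2-1, which had no count.

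**Figure D1:**
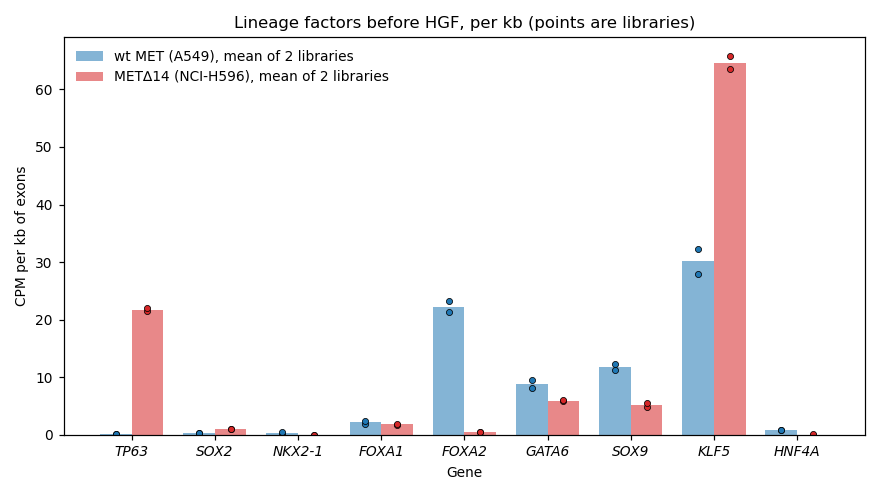
Levels of the 9 lineage factors before HGF, in CPM per kb of exons on a linear axis from 0, with bars for the mean of 2 libraries and points for each library. KLF5 has the tallest bar in both lines, at 30.1 with wt MET and 64.6 with MET∆14, FOXA2 is tall only with wt MET (22.3) and TP63 only with MET∆14 (21.8).

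After HGF was added most of the factors changed in each line, and some, such as GATA6 and KLF5, took opposite directions in the lines. Over the 3 times, 6 of 9 members changed with wt MET (TP63, FOXA1, FOXA2, GATA6, SOX9 and KLF5) against 40.3% of all genes. In turn, 6 of 9 changed with MET∆14 (TP63, SOX2, FOXA2, GATA6, SOX9 and KLF5) against 54.1% of all genes. FOXA2 was lost from the latter when the line was fitted alone, and TP63 from the former and from the test of the difference without the second wt MET library at 6 h. The response differed between the lines for 6 of 9 members (TP63, FOXA1, FOXA2, GATA6, SOX9 and KLF5), where the test of the difference called 37.6% of all genes. An additive model of line and time, which fits a common time course to both lines, called SOX2 and SOX9 (2 of 9, against 30.6% of all genes). Without the filter on low counts it called 6 of 9 (also TP63, FOXA1, FOXA2 and GATA6). A change in either line alone can be enough for such a call, so it does not show a shared response. SOX9 was called in both lines, but SOX2 was not called with wt MET (edgeR adjusted p = 0.0558 over the 3 times). The log2 fold changes of SOX2 were negative in both lines at 3 and 6 h. At 12 h they were 0.38 with wt MET and -1.296 with MET∆14. With wt MET 4, 5 and 3 members were called at 3, 6 and 12 h (17.4%, 34.2% and 35.1% of all genes). With MET∆14 it was 3, 6 and 6 members (31.7%, 44.1% and 38.3% of all genes). With 9 genes these shares lie above the background in some comparisons and below it in others, and they are not read as a property of the set.

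**Figure D2:**
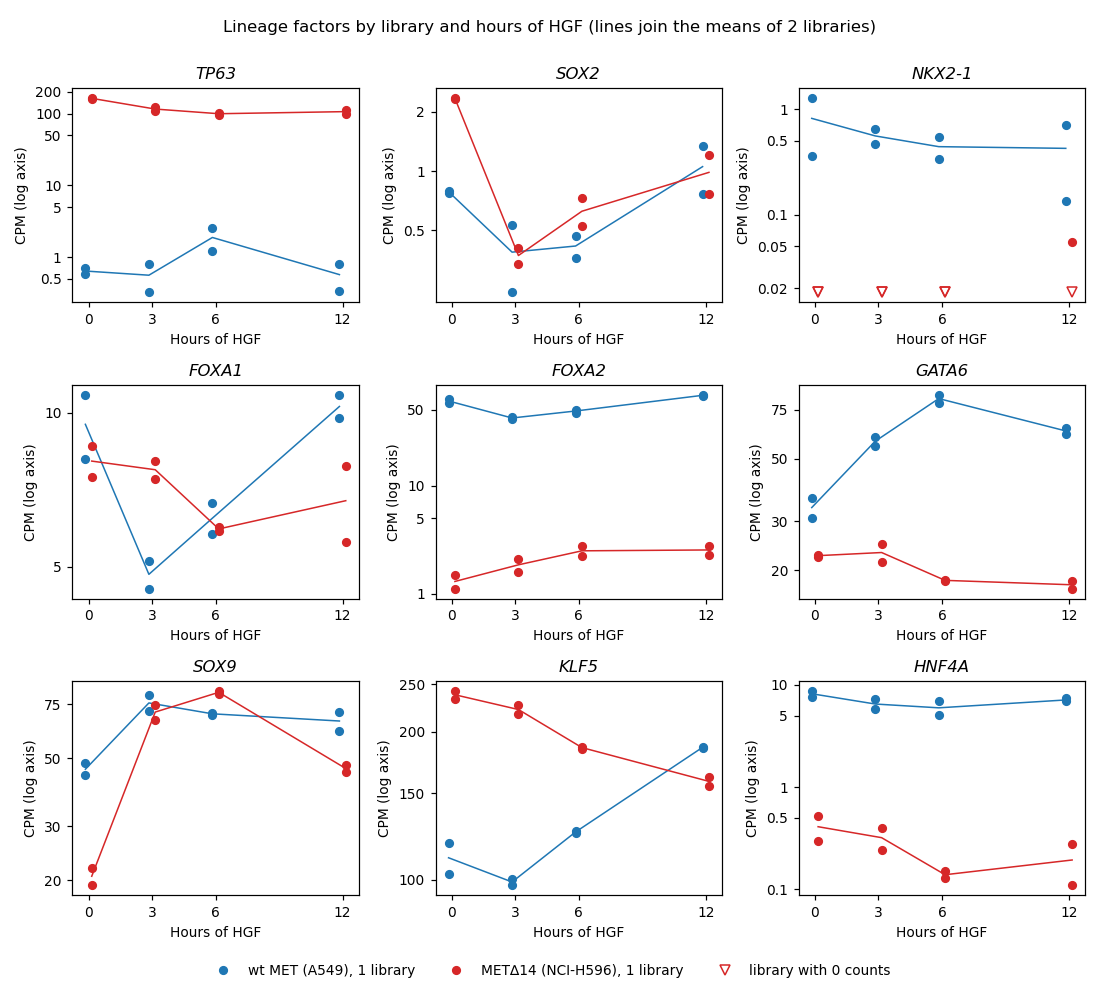
CPM of each lineage factor in every library on log axes against hours of HGF, with 1 point per library, lines through the means of 2 libraries and open triangles for libraries with 0 counts. GATA6 and KLF5 climb with wt MET (33.5 to 82.2 CPM by 6 h and 111 to 186 CPM by 12 h) while they drift down with MET∆14 (22.6 to 17.7 and 238 to 158 CPM by 12 h), and SOX9 climbs in both lines.

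TP63 encodes p63, the factor that maintains basal cells of stratified epithelium. It lies at chr3:189631389-189897276 on the plus strand of hg38 (GENCODE v44), and no exon of another gene overlaps its exons. In MET∆14 cells it was at 161 and 164 CPM at 0 h, 109 and 122 CPM at 3 h, 96.5 and 102 CPM at 6 h, and 100.1 and 113 CPM at 12 h. In A549 (wt MET) it had 8 and 10 counts at 0 h, 4 and 12 at 3 h, 20 and 38 at 6 h, and 5 and 17 at 12 h. The lines did not overlap at any time, and at 0 h TP63 was 250-fold higher with MET∆14 (log2 difference of 7.96 ± 0.24 SE, edgeR adjusted p = 3.59e-13). Within MET∆14 both untreated libraries lay above all 6 libraries with HGF. TP63 fell at each time in this line, with log2 fold changes of -0.50 ± 0.13 (SE) at 3 h, -0.71 ± 0.13 at 6 h and -0.62 ± 0.14 at 12 h (edgeR adjusted p = 0.0110, 0.000597 and 0.00231). The levels at 3, 12 and 6 h overlapped between neighbours in that order. The 3 h call was lost without any one of 3 libraries, either replicate at 0 h or the second at 3 h, with log2 fold changes of -0.51 to -0.42. With wt MET the rise at 6 h (log2 fold change of 1.51 ± 0.43, edgeR adjusted p = 0.0143) rested on 20 and 38 counts. It was lost without either 0 h library (1.38 and 1.67) and without the second 6 h library (0.93, edgeR adjusted p = 0.184). The responses of the lines differed at 6 h by -2.22 ± 0.45 on the log2 scale (edgeR adjusted p = 0.00165), and the differences at 3 and 12 h did not pass the test (adjusted p = 0.768 and 0.541).

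SOX2, a factor of pluripotent cells and of basal cells of the airway, was scarce in both lines. It lies at chr3:181711925-181714436 on the plus strand. In NCI-H596 (MET∆14) it had 36 and 47 counts at 0 h, 5 and 6 at 3 h, 7 and 17 at 6 h, and 13 and 14 at 12 h, which correspond to mean levels of 2.34 ± 0.0086, 0.373 ± 0.048, 0.626 ± 0.14 and 0.986 ± 0.31 CPM (SD, n = 2). With wt MET it had 11 counts in each library at 0 h, 3 and 8 at 3 h, 6 and 7 at 6 h, and 16 and 20 at 12 h. In MET∆14 the untreated libraries lay above all others of both lines, and the level was lowest at 3 h. SOX2 fell with MET∆14 at every time, with log2 fold changes of -2.64 ± 0.42 (SE) at 3 h, -1.85 ± 0.37 at 6 h and -1.296 ± 0.36 at 12 h (edgeR adjusted p = 0.000203, 0.000819 and 0.0105). At each time these were larger than the falls of the other members above the floor, in either line. The call at 12 h was lost without the first 12 h library of this line (log2 fold change of -0.95, edgeR adjusted p = 0.117) and with DESeq2 (-1.26, adjusted p = 0.0816). With wt MET no time passed the test, with log2 fold changes of -0.96 ± 0.50, -0.91 ± 0.48 and 0.38 ± 0.41. The responses differed at 12 h (by -1.67 ± 0.55, edgeR adjusted p = 0.0367), a call lost under DESeq2 (adjusted p = 0.145), without a filter (0.0557) and without any one of 7 libraries (log2 differences of -1.69 to -1.25). The test over the 3 times missed the threshold (adjusted p = 0.0785). At 0 h SOX2 was 2.96-fold higher with MET∆14 (edgeR adjusted p = 0.00121), while at 3 h and at 12 h the libraries of the lines overlapped. The fall of TP63 and of SOX2 in the same libraries is 1 pair of genes in 1 line and was not tested as a pair.

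NKX2-1, the thyroid and lung factor that drives surfactant genes, was close to absent. It lies at chr14:36516392-36521149 on the minus strand. Of its exon bases, 32.6% are shared with SFTA3 on the same strand and 12.7% with NKX2-1-AS1 on the opposite strand, so its counts are uncertain where the use of strand is not given. In wt MET cells it had 5 and 18 counts at 0 h, 7 and 8 at 3 h, 5 and 9 at 6 h, and 2 and 15 at 12 h. With MET∆14 it had 0 counts in 7 libraries and 1 count in a library at 12 h. The conditions with wt MET overlapped one another. Before HGF it was at least 9.72-fold lower with MET∆14, against a floor of 3 counts summed over the 2 MET∆14 libraries (edgeR adjusted p = 0.00151). Without the second wt MET library the bound was 4.28-fold, and without the first it was 15.05-fold. No response to HGF was called in either line. SFTA3 itself had 0 counts in every library. MBIP, the next gene along the chromosome, was well above the floor in both lines (33.0 ± 5.2 CPM with wt MET and 17.2 ± 1.9 CPM with MET∆14 at 0 h, SD, n = 2) and was lower with MET∆14 by 0.95 ± 0.12 on the log2 scale (edgeR adjusted p = 1.95e-06).

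FOXA1 was the 1 member whose difference between the lines before HGF did not pass the test. It lies at chr14:37589552-37596059 on the minus strand, and 0.4% of its exon bases overlap TTC6 on the opposite strand. In A549 (wt MET) it was at 8.13 and 10.9 CPM at 0 h, 4.53 and 5.14 CPM at 3 h, 5.79 and 6.66 CPM at 6 h, and 9.76 and 10.8 CPM at 12 h. In MET∆14 cells it was at 7.50 and 8.59 CPM at 0 h, 7.41 and 8.06 CPM at 3 h, 5.87 and 5.99 CPM at 6 h, and 5.58 and 7.88 CPM at 12 h. In wt MET cells the 3 h and 6 h libraries lay below all libraries at 0 h and 12 h, and in MET∆14 cells the times overlapped apart from 6 h, which lay below 0 h and 3 h. FOXA1 fell with wt MET at 3 h (log2 fold change of -0.97 ± 0.20 SE, edgeR adjusted p = 0.00311) and at 6 h (-0.61 ± 0.19, edgeR adjusted p = 0.0214) while the change at 12 h was 0.12 ± 0.18 (edgeR adjusted p = 0.646). The 6 h call was lost with DESeq2 (adjusted p = 0.0523) and without the first 0 h library or either 6 h library, which gave log2 fold changes of -0.71 to -0.38. With MET∆14 no time passed the test (log2 fold changes of -0.06 ± 0.18, -0.45 ± 0.19 and -0.29 ± 0.19). The 6 h change passed it without either wt MET library at 0 h or either MET∆14 library at 12 h (-0.45 in each case), and the 12 h change did so without the second 12 h library (-0.53, adjusted p = 0.0354). The lines differed in their 3 h response by 0.90 ± 0.27 on the log2 scale (edgeR adjusted p = 0.0310), a call that was lost without any one of 7 of the 8 libraries at 0 and 3 h (0.68 to 1.01). At 0 h the log2 difference between the lines was -0.23 ± 0.18 (edgeR adjusted p = 0.246).

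FOXA2, the related pioneer factor of foregut endoderm and liver, was abundant with wt MET and scarce with MET∆14. It lies at chr20:22580998-22585455 on the minus strand. With wt MET it was at 58.0 and 63.1 CPM at 0 h, 41.2 and 43.1 CPM at 3 h, 47.3 and 50.5 CPM at 6 h, and 67.1 and 69.4 CPM at 12 h. In NCI-H596 (MET∆14) it had 17 and 30 counts at 0 h, 26 and 28 at 3 h, 30 and 64 at 6 h, and 30 and 42 at 12 h, which correspond to 1.299 ± 0.27, 1.85 ± 0.38, 2.49 ± 0.35 and 2.54 ± 0.34 CPM (SD, n = 2). No 2 times overlapped with wt MET, and with MET∆14 both untreated libraries lay below all others. Before HGF it was 45.6-fold lower with MET∆14 (log2 difference of -5.51 ± 0.15 SE, edgeR adjusted p = 1.21e-13). In wt MET cells it fell at 3 h (-0.52 ± 0.10, edgeR adjusted p = 0.00248) and 6 h (-0.31 ± 0.10, edgeR adjusted p = 0.0291) and then rose from 6 to 12 h (0.48 ± 0.10, edgeR adjusted p = 0.00598). FOXA1 took the same direction (0.73 ± 0.18 from 6 to 12 h, edgeR adjusted p = 0.0181). At 12 h the change with wt MET was 0.17 ± 0.10 (edgeR adjusted p = 0.201), which passed the test when the line was fitted alone (0.20, adjusted p = 0.0412). The 6 h fall was lost with DESeq2 (adjusted p = 0.0652), without a filter (0.0810) and without any one of 4 libraries, namely the second at 0 h, either at 6 h or the first at 12 h (log2 fold changes of -0.36 to -0.24). With MET∆14 it rose at 6 h (0.94 ± 0.21, edgeR adjusted p = 0.00228) and at 12 h (0.91 ± 0.22, edgeR adjusted p = 0.00496). The 6 h rise was lost without the second 6 h library (0.76, adjusted p = 0.0756) and the 12 h rise without the first 0 h library (0.74, adjusted p = 0.0593). The response was higher with MET∆14 than with wt MET at each time, by 0.97 ± 0.26, 1.25 ± 0.24 and 0.74 ± 0.25 on the log2 scale (edgeR adjusted p = 0.0169, 0.000947 and 0.0402). The 3 h difference was lost without the first MET∆14 library at 0 h or at 3 h (0.80 and 0.78), and the 12 h difference was lost with DESeq2, without a filter and without any one of 8 libraries (0.57 to 0.78).

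GATA6 and KLF5 rose with wt MET and fell with MET∆14. GATA6, a zinc finger factor of endoderm, lies at chr18:22169589-22202528 on the plus strand. Of its exon bases, 10.9% overlap GATA6-AS1 and an unnamed gene on the opposite strand, so that part of its count is uncertain. KLF5, a zinc finger factor of proliferating gut and bronchial epithelium, lies at chr13:73054976-73077541 on the plus strand with no overlapping gene. Their upstream sequences are shown because these factors moved in opposite directions in the lines. The 250 bases before each RefSeq start (GRCh38.p14) are written in the direction of transcription, with capitals for matches on either strand to the motifs searched. The motif of the AP-1 factors was written as TGANTCA. The motif of the ETS factors was written as CCGGAAG. For the cyclic AMP response element the letters were TGACGTCA, and for the SP and KLF factors they were GGGCGG. For FOXA proteins the letters were TGTTTAC, for SOX proteins the search used ACAATG, and for the TATA box it used TATAAA. None of these motifs lies within another, on either strand.
GATA6, chr18:22169339-22169588: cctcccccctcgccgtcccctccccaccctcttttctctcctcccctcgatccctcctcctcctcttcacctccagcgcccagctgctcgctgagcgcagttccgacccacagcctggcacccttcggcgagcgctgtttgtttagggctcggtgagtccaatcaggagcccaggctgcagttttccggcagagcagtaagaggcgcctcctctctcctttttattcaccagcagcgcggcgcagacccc
KLF5 upstream start, chr13:73054726-73054975: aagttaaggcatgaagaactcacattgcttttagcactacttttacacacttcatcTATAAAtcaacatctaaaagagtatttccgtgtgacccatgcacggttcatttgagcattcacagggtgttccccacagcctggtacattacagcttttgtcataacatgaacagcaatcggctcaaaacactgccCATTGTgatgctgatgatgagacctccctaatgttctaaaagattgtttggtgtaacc
KLF5 downstream start, chr13:73058755-73059004: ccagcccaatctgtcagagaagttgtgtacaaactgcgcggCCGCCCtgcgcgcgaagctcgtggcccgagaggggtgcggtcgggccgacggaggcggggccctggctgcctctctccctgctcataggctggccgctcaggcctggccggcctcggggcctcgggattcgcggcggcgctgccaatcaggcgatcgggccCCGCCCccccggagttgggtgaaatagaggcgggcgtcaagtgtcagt
GATA6 holds none of the motifs in this window. The upstream KLF5 start holds a TATA match (TATAAA) at -194 and a SOX match (CATTGT, the reverse strand) at -58, and the downstream start holds matches to the SP and KLF motif (on the reverse strand) at -209 and -48. Among 35116 promoter windows of 250 bases before to 50 after the start, 11.53% hold the TATA motif, 10.78% the SOX motif and 44.95% the SP and KLF motif. A match is a string of letters and not a shown binding site.

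GATA6 was at 30.8 and 36.2 CPM at 0 h with wt MET, 55.8 and 59.97 CPM at 3 h, 79.4 and 85.0 CPM at 6 h, and 61.5 and 64.5 CPM at 12 h. In MET∆14 cells it was at 22.4 and 22.7 CPM at 0 h, 21.5 and 24.8 CPM at 3 h, 18.3 and 18.5 CPM at 6 h, and 17.1 and 18.3 CPM at 12 h. No 2 times overlapped with wt MET and every library of that line lay above every library of the other. With MET∆14 the libraries at 6 and 12 h lay below those at 0 and 3 h. GATA6 rose with wt MET by 0.79 ± 0.10 (SE) on the log2 scale at 3 h, 1.29 ± 0.10 at 6 h and 0.91 ± 0.10 at 12 h (edgeR adjusted p = 6.73e-05, 2.72e-07 and 1.03e-05), the last being lower than at 6 h by 0.38 ± 0.09 (edgeR adjusted p = 0.0153). Its falls with MET∆14 were small, -0.29 ± 0.11 at 6 h and -0.34 ± 0.11 at 12 h (edgeR adjusted p = 0.0343 and 0.0210). The 6 h fall was lost with DESeq2 (adjusted p = 0.0625), without a filter (0.103), with the line fitted alone (0.102) and without any one of 6 libraries (-0.31 to -0.27). The 12 h fall was lost with the line fitted alone (0.0656) and without any one of 4 libraries (-0.35 to -0.28). The difference of the responses stood at all 3 times and under each alternative, at -0.76 ± 0.14, -1.59 ± 0.14 and -1.25 ± 0.15 (edgeR adjusted p = 0.00198, 1.69e-06 and 3.01e-05).

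KLF5 was at 103 and 119 CPM at 0 h with wt MET, 97.3 and 100.5 CPM at 3 h, 125 CPM in both libraries at 6 h and 186 CPM in both at 12 h. In NCI-H596 (MET∆14) it was at 234 and 242 CPM at 0 h, 217 and 226 CPM at 3 h, 185 and 187 CPM at 6 h, and 155 and 162 CPM at 12 h. The order of the times ran upward from 3 h to 12 h in wt MET cells and downward from 0 h to 12 h in MET∆14 cells, with no overlap between times, and the level with wt MET at 12 h overlapped that with MET∆14 at 6 h. KLF5 rose with wt MET at 12 h (log2 fold change of 0.75 ± 0.08 SE, edgeR adjusted p = 7.89e-06). The changes at 3 and 6 h were -0.16 ± 0.08 and 0.17 ± 0.08 (edgeR adjusted p = 0.177 and 0.101). The 6 h change passed the test when the line was fitted alone (0.21, adjusted p = 0.0285). Leaving out the second 0 h library brought the 3 h change past the threshold (-0.26), and leaving out the first 0 h library (0.28) or either MET∆14 library at 12 h (0.17) did so at 6 h. With MET∆14 KLF5 fell at 6 h (-0.36 ± 0.08, edgeR adjusted p = 0.00150) and 12 h (-0.59 ± 0.08, edgeR adjusted p = 3.60e-05). The responses differed at 6 h by -0.53 ± 0.11 and at 12 h by -1.33 ± 0.11 (edgeR adjusted p = 0.00186 and 1.66e-06), so that a 2.15-fold excess with MET∆14 at 0 h (edgeR adjusted p = 3.20e-09) ended as a lower level at 12 h (158 ± 4.8 against 186 ± 0.51 CPM, SD, n = 2). That last pair of levels does not overlap between the lines and was not tested.

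SOX9 was the 1 member that rose in both lines at every time. It lies at chr17:72121020-72126416 on the plus strand with no overlapping gene, and its product directs cartilage, bile duct and distal lung progenitors. In A549 (wt MET) it was at 43.9 and 48.0 CPM at 0 h, 71.0 and 80.2 CPM at 3 h, 69.1 and 70.3 CPM at 6 h, and 61.3 and 70.8 CPM at 12 h. With MET∆14 it was at 19.2 and 22.0 CPM at 0 h, 66.7 and 74.5 CPM at 3 h, 81.1 and 82.7 CPM at 6 h, and 45.1 and 47.4 CPM at 12 h. Untreated libraries lay below all treated libraries of their line. SOX9 rose with wt MET by 0.72 ± 0.10 (SE), 0.60 ± 0.10 and 0.52 ± 0.10 on the log2 scale at 3, 6 and 12 h (edgeR adjusted p = 0.000169, 0.000345 and 0.00106). With MET∆14 the rise was 1.77 ± 0.11, 1.99 ± 0.11 and 1.16 ± 0.11 (edgeR adjusted p = 2.06e-08, 3.89e-09 and 1.39e-06). The rise was larger with MET∆14 at each time, by 1.05 ± 0.15, 1.39 ± 0.14 and 0.64 ± 0.15 (edgeR adjusted p = 0.000146, 6.15e-06 and 0.00499). SOX9 started 2.23-fold lower with MET∆14 (edgeR adjusted p = 7.48e-08), and at 3 h the libraries of the lines overlapped. It then fell in MET∆14 cells from 6 to 12 h by 0.82 ± 0.10 on the log2 scale (edgeR adjusted p = 9.32e-05), where it was the 1 member called of 9 against 18.6% of all genes. With wt MET 5 of 9 members changed from 6 to 12 h, against 11.6% of all genes, and SOX9 was not among them (-0.08 ± 0.10, edgeR adjusted p = 0.684). The numbers of all genes called from 6 to 12 h moved widely when single libraries were left out, from 681 to 3220 with wt MET (without the first wt MET and the second MET∆14 library at 12 h) and from 875 to 6440 with MET∆14 (without the second library at 6 h and at 12 h), so these shares are a loose background. Of those 5 calls KLF5 (0.57 ± 0.08, edgeR adjusted p = 0.000218) passed the test without any one library. FOXA1 (0.62 to 0.83) and GATA6 (-0.45 to -0.33) lost it without any one of the 4 wt MET libraries at 6 and 12 h, FOXA2 (0.42 to 0.48) without the second at 6 h or either at 12 h, and TP63 (-1.59 ± 0.41, edgeR adjusted p = 0.0211) without the second at 6 h (-0.99) or at 12 h (-1.19).

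HNF4A, the nuclear receptor that maintains hepatocyte and intestinal gene expression, was low with wt MET and lower with MET∆14. It lies at chr20:44355699-44432845 on the plus strand, where it is known to be transcribed from a pair of promoters that gene counts do not separate. With wt MET it was at 7.64 and 8.68 CPM at 0 h, 5.74 and 7.21 CPM at 3 h, 5.02 and 6.86 CPM at 6 h, and 6.86 and 7.33 CPM at 12 h. In MET∆14 cells it had 6 and 8 counts at 0 h, 3 and 7 at 3 h, 2 and 3 at 6 h, and 2 and 3 at 12 h. The times other than 0 h overlapped with wt MET, and at 6 and 12 h with MET∆14 the gene was at or under 3 counts in each library, where no fold is given. Before HGF it was 20.2-fold lower with MET∆14 (log2 difference of -4.34 ± 0.31 SE, edgeR adjusted p = 3.57e-09). No response passed the test in either line, and with wt MET the log2 fold changes were -0.33 ± 0.22, -0.46 ± 0.22 and -0.20 ± 0.21 at 3, 6 and 12 h (edgeR adjusted p = 0.339, 0.116 and 0.496).

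**Figure D3:**
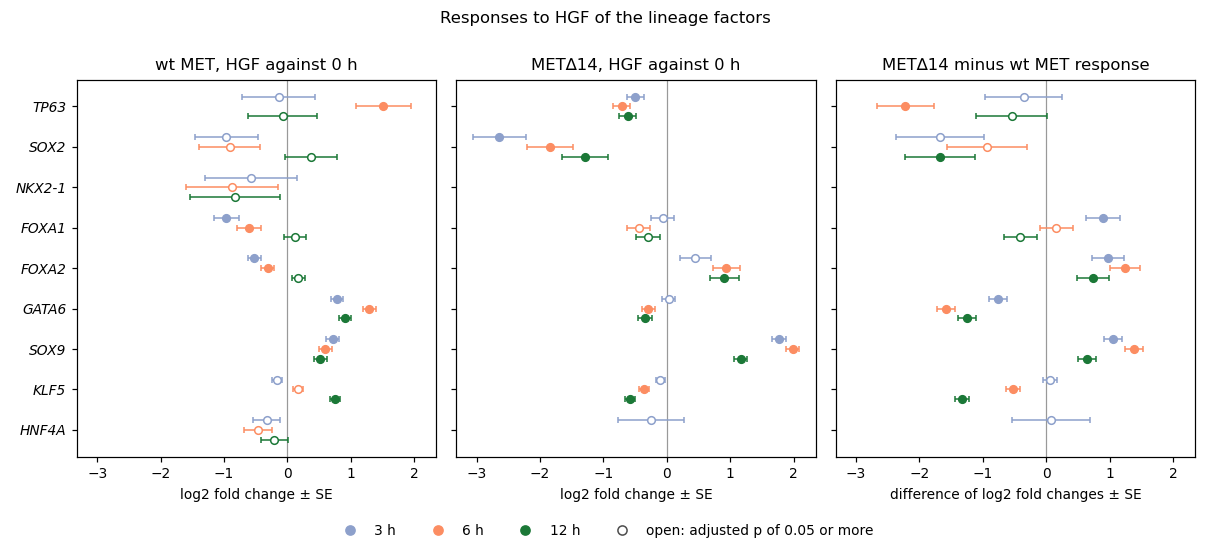
Log2 fold changes against 0 h with wt MET (left) and with MET∆14 (middle), and their differences (right), at 3, 6 and 12 h, with bars for 1 SE, filled points for an adjusted p under 0.05 and no point where a group had at most 3 counts in each library. GATA6 is right of 0 at all times with wt MET (0.79 to 1.29) and left of it at 6 and 12 h with MET∆14 (-0.29 and -0.34), and SOX9 is right of 0 in both lines and further right with MET∆14.

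Genes known as markers of the tissues that these factors specify were followed as lists. Of 25 squamous and basal genes, all 25 were tested, and 24 were higher and 1 lower with MET∆14 at 0 h. In that comparison 80.2% of all genes tested were called, 6124 higher and 5961 lower. Only 13 of the 25 were above the floor in both lines at 0 h, with a median log2 difference of 4.67 (0.02 over all genes). Over the 25 genes the median was 6.18 with genes at the floor in a line set to their bound. A gene at the floor in a line passed the filter mainly through the other line, so its direction was largely fixed in advance. KRT5, the keratin of basal cells, was at 2142 ± 58 CPM with MET∆14 (SD, n = 2) and at 1 to 3 counts per library with wt MET. FAT2, an atypical cadherin of stratified epithelium, was at 1675 ± 39 CPM with MET∆14 and at most at 3 counts in a library with wt MET. DSC3 went the other way, with 24.1 ± 0.75 CPM against 0 to 1 counts. With MET∆14 at 12 h, 8 genes of the list rose and 11 fell (median log2 fold change of -0.23 over the 24 genes above the floor, -0.02 over all genes). Of all genes tested 38.3% were called at that time, 2753 higher and 3021 lower. KRT6B, a keratin of activated squamous epithelium, rose from 3.41 ± 0.027 to 18.1 ± 6.5 CPM (log2 fold change of 2.39 ± 0.32, edgeR adjusted p = 0.000212). KRT17 rose from 8.01 ± 1.2 to 21.6 ± 9.8 CPM (1.39 ± 0.33, edgeR adjusted p = 0.00463). Both keratins have near-identical copies in the genome and their counts are uncertain, and KRT17 missed the threshold without the second 12 h library (0.86). Without either 12 h library the list had 8 or 7 genes up and 9 or 13 down. KRT15, a keratin of quiescent basal cells, fell from 91.1 ± 10.1 to 16.3 ± 5.3 CPM (-2.45 ± 0.19, edgeR adjusted p = 4.17e-07). The nerve growth factor receptor NGFR fell from 58.3 ± 1.9 to 13.9 ± 1.3 CPM (-2.07 ± 0.15, edgeR adjusted p = 1.59e-07). With wt MET only 13 of the 25 genes were above the floor at both 0 and 12 h. The numbers called are therefore not compared between the lines. In wt MET cells 1 gene of the list rose and 2 fell at 12 h (2 and 4 without a filter), namely DSC3 (0.52 ± 0.12, edgeR adjusted p = 0.00456, lost without the first 12 h library at 0.42), NGFR (-1.26 ± 0.26, edgeR adjusted p = 0.00176) and the integrin gene ITGB4 (-1.10 ± 0.15, edgeR adjusted p = 5.96e-05). NGFR thus fell in both lines, from 3.64 ± 0.45 CPM with wt MET. The difference of its responses did not pass the test (adjusted p = 0.0704), whereas that of KRT15 did (-1.99 ± 0.39, edgeR adjusted p = 0.00204).

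Of 30 liver and gut genes, 15 were tested, 12 of which were lower and 3 higher with MET∆14 at 0 h (80.2% of all genes were called). Only 5 of the 15 were above the floor in both lines, and their median log2 difference was 3.24, higher with MET∆14. Over the 15 genes the median was -4.34 with genes at the floor in a line set to their bound. A gene at the floor in a line passed the filter mainly through the other line. The direction of such genes was thus largely fixed in advance and is not read as a result. The summed level of 5 hepatic and gut markers (ALB, AFP, APOA1, CDX2 and VIL1) was low in both lines. It reached at most 2.10 CPM with wt MET and 0.489 CPM with MET∆14. FGB, which encodes the beta chain of fibrinogen, was at 37.5 ± 0.20 CPM with wt MET and had 0 counts in all MET∆14 libraries. TM4SF4, a tetraspanin-like membrane protein gene of liver and gut, was at 19.2 ± 0.72 CPM and at 0 to 1 counts. RBP4, the retinol carrier (15.2 ± 0.58 against 0.861 ± 0.32 CPM), and the adhesion molecule gene CEACAM5 (2.10 ± 0.72 against 0.181 ± 0.26 CPM) were higher with MET∆14. With wt MET 5 of the 15 genes fell at 12 h and 0 rose, where 35.1% of all genes were called, 2549 higher and 2735 lower (median log2 fold change of -0.998, against -0.0019 over all genes). The number that fell was 3 without the first 0 h library or either 12 h library, and 8 without either MET∆14 library at 12 h or with the line fitted alone. FGA fell from 2.33 ± 0.80 to 0.469 ± 0.19 CPM (-2.34 ± 0.44, edgeR adjusted p = 0.00198), FGB to 15.6 ± 0.99 CPM (-1.26 ± 0.14, edgeR adjusted p = 6.97e-05) and TM4SF4 to 7.06 ± 0.76 CPM (-1.45 ± 0.19, edgeR adjusted p = 0.000128). In the same libraries GATA6 and KLF5 were higher than at 0 h and the change of HNF4A did not pass the test, as given above. With MET∆14 only 3 of the 15 were above the floor at both 0 and 12 h. The number that fell is therefore not set against that with wt MET. The 1 call was a fall of the antiprotease gene SERPINA1 (3.79 ± 0.45 to 2.25 ± 0.23 CPM, -0.76 ± 0.27, edgeR adjusted p = 0.0339). It was lost with DESeq2 (adjusted p = 0.192), without a filter (0.0620), with the line fitted alone (0.0569) and without any one of 4 libraries (-0.88 to -0.64).

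Of 23 lung alveolar and airway genes, 8 passed the filter, with 4 higher, 3 lower and 1 not called between the lines at 0 h. With 80.2% of all genes called in that comparison, the share of the list is near the background and is not read as its property. The cell-surface mucin gene MUC1 (139 ± 1.0 against 2.10 ± 0.83 CPM) and the lysosomal gene LAMP3 (84.5 ± 14.5 against 1.72 ± 0.63 CPM) were higher with MET∆14, and the airway mucin gene MUC5B was higher with wt MET (67.3 ± 31 against 0.360 ± 0.23 CPM). NAPSA was also higher with wt MET (1.07 ± 0.12 against 0.163 ± 0.23 CPM, log2 difference of -2.84 ± 0.96, edgeR adjusted p = 0.0132). That call was lost with DESeq2 (adjusted p = 0.0710), without the first wt MET library (-2.72) and without the second MET∆14 library at 0 h (-1.69). With HGF at 12 h MUC5B fell with wt MET to 17.4 ± 2.5 CPM (-1.96 ± 0.27, edgeR adjusted p = 0.000137), the 1 call of the list (35.1% of all genes were called). Without a filter or without either MET∆14 library at 12 h, 2 genes of the list fell with wt MET, and 3 did without the second 0 h library. With MET∆14 1 of the 8 rose and 4 fell (38.3% of all genes were called). The phospholipid acyltransferase gene LPCAT1 rose from 156 ± 11 to 247 ± 5.6 CPM (0.66 ± 0.10, edgeR adjusted p = 7.89e-05), and LAMP3 (-0.95 ± 0.21) and CEACAM6 (-0.92 ± 0.23) fell (edgeR adjusted p = 0.00314 and 0.00525). Both falls were lost without the first 12 h library (-0.83 and -0.70), which left 2 genes down.

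Of 33 other lineage factors, 24 were tested. At 0 h 9 were higher and 12 lower with MET∆14, among the tested genes, where 80.2% of all genes were called. The share called is near that background and is not read as a property of the list. SOX15, a relative of SOX2 (90.5 ± 0.064 against 0.463 ± 0.25 CPM), and the tuft cell factor POU2F3 (5.92 ± 0.015 CPM against at most 2 counts) were among the higher. GATA3 (0.379 ± 0.17 against 27.7 ± 1.6 CPM) and GATA4 (0 counts against 3.83 ± 0.92 CPM) were among the lower. At 12 h 6 rose and 1 fell with wt MET (35.1% of all genes called), while 5 rose and 9 fell with MET∆14 (38.3%). With wt MET the number that rose was 3 without the first 12 h library, and the number that fell was 3 without either MET∆14 library at 12 h. ELF3, an ETS factor of differentiated epithelium, fell in both lines, from 128 ± 45 to 66.4 ± 8.4 CPM with wt MET (-0.95 ± 0.17, edgeR adjusted p = 0.000836) and from 34.4 ± 3.3 to 8.61 ± 0.019 CPM with MET∆14 (-2.00 ± 0.22, edgeR adjusted p = 8.75e-06). The fall was deeper in the latter (difference of -1.05 ± 0.28, edgeR adjusted p = 0.0136). The nuclear receptor gene NR5A2 rose with MET∆14 from 3.68 ± 0.50 to 8.001 ± 0.090 CPM (1.13 ± 0.15, edgeR adjusted p = 5.18e-05). Its change with wt MET was -0.24 ± 0.11 (adjusted p = 0.110) and the difference passed the test (1.37 ± 0.19, edgeR adjusted p = 0.000138). POU2F3 fell with MET∆14 (-2.44 ± 0.37, edgeR adjusted p = 0.000207), FOXP1 rose there (0.52 ± 0.13, edgeR adjusted p = 0.00435, lost without the first 0 h library at 0.43), and PROX1 and ONECUT2, which act in liver and gut development, rose with wt MET (1.505 ± 0.33 and 0.98 ± 0.25, edgeR adjusted p = 0.00266 and 0.00656), the latter lost without the first 12 h library (0.92). The number that rose with MET∆14 was 3 with DESeq2, with the replicate block or without the second 0 h library, the first 12 h library or the second wt MET library at 12 h, 2 with the line fitted alone and 1 without the first 0 h library.

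**Figure D4:**
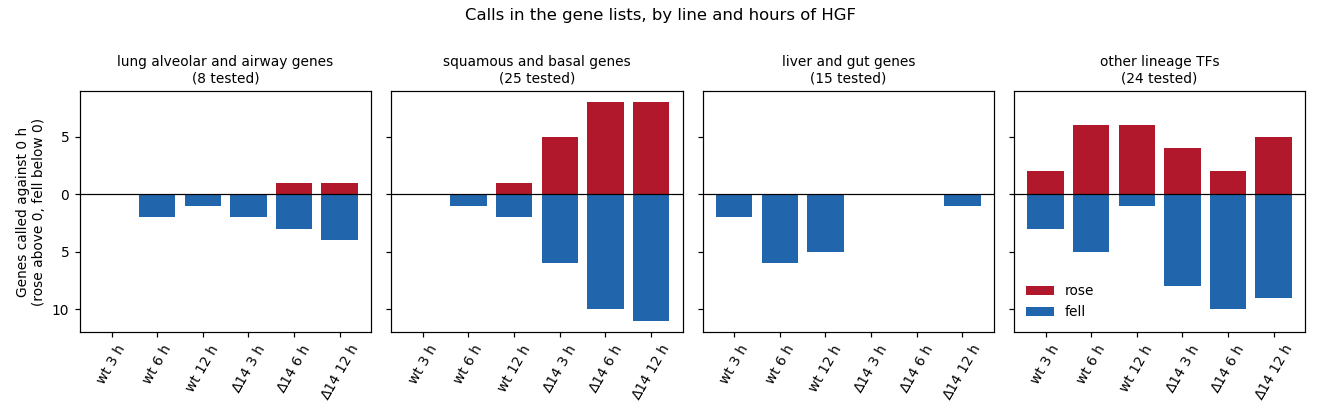
Number of genes of each list that rose (upward bars) or fell (downward bars) against 0 h, for each line and time, with the number of genes tested above each panel. In the squamous and basal list the bars reach 8 up and 11 down at 12 h with MET∆14, and in the liver and gut list they point down with wt MET, with 5 of 15 genes at 12 h. Many tested genes were at the floor in 1 line. At 12 h against 0 h, 13 of 25 squamous and basal genes were above it with wt MET, and 3 of 15 liver and gut genes with MET∆14.

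The genes whose time course most resembled each factor were found by Pearson's r over 16 libraries of log2 CPM centred within each line, among 9638 genes. The libraries share their line, time and scaling, so r describes likeness over these points only. SOX2 had at most 47 counts in a library, TP63 at most 38 with wt MET and FOXA2 at most 64 with MET∆14. The r of these members is therefore less certain. STC1 followed GATA6 most closely (r = 0.981), ZYX followed SOX9 (0.981) and SPIN1 followed KLF5 (0.952). FZD1 followed SOX2 (0.949), VDAC1 followed FOXA2 (0.908) and PLEKHA2 followed FOXA1 (0.903). ANXA8L1, which has a near-identical copy and is uncertain, followed TP63 (0.838). The next genes were DYRK1A and HPS5 for GATA6, SLC20A2 and GTPBP4 for SOX9, TBC1D12 and RUNX2 for KLF5, and TRMT1L and PDE4B for SOX2. They were FAM171A1 and SLC15A4 for FOXA2, SNN and PITX1 for FOXA1, and TMEM132A and TGFBI for TP63, all with r between 0.829 and 0.980. NKX2-1 and HNF4A had no called response and were not matched.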

How the data were processed

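Poly(A) RNA-seq of 2 cell lines at 4 times with 2 replicates was used. The authors trimmed adapters and mapped reads with STAR to ENSEMBL hg38, and deposited whole-number counts per gene without scaling. The submitters' processing notes list STAR 2.5.0 and RSEM 1.3.2, and the annotation version and use of strand are not given in the sources used here. Serum deprivation is 12 h per the labels and a longer time per the methods. Replicates were mapped by their numbers in the labels.

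In R 4.3.3, edgeR 4.0.16 with limma 3.58.1 kept genes by filterByExpr (minimum count 10, total 15), scaled by TMM and fitted a robust quasi-likelihood model with 1 coefficient per condition over 16 libraries. Benjamini-Hochberg adjustment ran over 15067 genes, with a threshold of 0.05. CPM use scaled library sizes, log2 CPM a prior count of 2, and gene positions and lengths GENCODE v44. A group with at most 3 counts in each library was taken as at the floor, which covers counting error only. Alternatives were DESeq2 1.42.0, its size factors in edgeR, no filter, a replicate block, each line alone and leaving out each library. Per list and line, the text names the 2 genes that rose most and the 2 that fell most at 12 h, and between lines at 0 h the top 2 each way, with at least 1 CPM. For each member called in a line, the 3 genes with the highest r were named. The members and lists were chosen with earlier results of these data known. The study also reports transcriptomes of cells with amplified wt MET, and the 16 libraries available here included no such cells.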

Additional observations from a re-analysis of the deposited data

Results flagged for a closer look

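The response to HGF differed between the lines for 6 of the 9 lineage factors in the edgeR test over the 3 times. The adjusted p was 9.37e-07 for KLF5, 6.21e-06 for GATA6, 2.45e-05 for SOX9, 0.00377 for TP63, 0.00441 for FOXA2 and 0.00913 for FOXA1. With wt MET at 6 h TP63 had only 20 and 38 counts, and its call was lost without the second of these libraries. For GATA6 and KLF5 the called changes against 0 h pointed up with wt MET and down with MET∆14. The falls of GATA6 with MET∆14 were lost with the line fitted alone. For FOXA2 the called changes against 0 h pointed down at 3 and 6 h with wt MET and up at 6 and 12 h with MET∆14. For SOX9 both lines rose and MET∆14 rose more. Groups of 2 libraries were too small for a search for outlying samples.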

How the results depend on the processing

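The counts of lineage factors called did not move by more than 1.5 times under the alternatives, except that the additive model called 6 of 9 without a filter. When each of the 16 libraries was left out in turn, the count of 9 ranged from 5 to 7 with wt MET, 6 to 7 with MET∆14, 5 to 7 for the difference of the responses, stayed at 8 for the lines before HGF and ranged from 2 to 3 in the additive model. The log2 fold changes of single members were followed except for the steps from 3 to 6 h and those with a group at the floor. Steps from 6 to 12 h were followed only where called, so those calls could be lost but not gained. Under the alternatives that kept all libraries, 378 kept their direction and side of the threshold. There 15 calls were lost, 2 gained (KLF5 at 6 h and FOXA2 at 12 h with wt MET, with the line fitted alone) and 0 turned. With single libraries left out, 1268 kept both, 63 calls were lost, 9 gained and 20 turned, all 20 among changes that had not passed the test. These ranged from -0.98 to 0.31 for TP63 at 3 h and -0.92 to 0.33 at 12 h with wt MET, from -0.81 to 0.48 and -0.94 to 0.37 for its differences between the lines at 3 and 12 h, and from -0.045 to 0.76 for SOX2 at 12 h with wt MET. NKX2-1 with wt MET ranged from -1.20 to 0.60, -1.50 to 0.29 and -2.54 to 0.34 at 3, 6 and 12 h, where the second 0 h library (18 counts against 5) turned the sign. FOXA1 ranged from -0.074 to 0.34 at 12 h with wt MET, -0.16 to 0.042 at 3 h with MET∆14 and -0.063 to 0.35 for the 6 h difference, GATA6 from -0.073 to 0.14 at 3 h with MET∆14, KLF5 from -0.043 to 0.16 for the 3 h difference, and HNF4A from -0.68 to 0.15 at 3 h with MET∆14 and -0.35 to 0.48 for the 3 h difference. The causes were not tested.

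Replicate numbers did not pair the libraries (correlations of replicate differences of -0.159 to 0.035 within a line). With the replicate block the counts in the same order stayed at 6, 6, 6, 8 and 2 of 9, and the calls of SOX2 (-1.66, adjusted p = 0.0586) and FOXA2 (0.76, adjusted p = 0.0517) for the 12 h difference, GATA6 at 6 h with MET∆14 (-0.29, adjusted p = 0.0509), NAPSA at 0 h (-2.23, adjusted p = 0.0933) and SERPINA1 at 12 h with MET∆14 (-0.76, adjusted p = 0.0566) missed the threshold. Fitting each line alone moved the number of all genes called from 6 to 12 h from 1743 to 2787 with wt MET and from 2806 to 1418 with MET∆14. Of the 21 genes named for likeness to a member, 19 were shared with a prior count of 0.5. Depth limits SOX2, NKX2-1, TP63 with wt MET, and FOXA2 and HNF4A with MET∆14, which had under 100 counts in each library.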
